A study of Rattus norvegicus with 11 samples.

Results

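The genes described here encode ubiquitin ligases of striated muscle: Fbxo32 (atrogin-1), Trim63 (MuRF1), Trim54 (MuRF3) and Trim55 (MuRF2). They were chosen by name, as the rows of the authors' deposited table whose symbol equals one of these 4, and all 4 were found among its 17257 genes. RNA came from isolated adult ventricular myocytes, the contractile cells of the heart's main chambers, of wild-type Sprague Dawley rats aged 3 to 4 months. The cells were released from hearts perfused on a Langendorff apparatus, then kept on dishes for 45 minutes with no treatment and flash frozen. Males gave 6 libraries and females 5, described in the series as biological replicates, and the design compares the sexes.

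A ubiquitin ligase selects a protein for the attachment of ubiquitin, which often sends that protein to the proteasome. Fbxo32 is an F-box protein, the substrate-binding part of a ligase built on the scaffold of Skp1, Cul1 and Rbx1, and in the heart it is known to act on calcineurin. The MuRF proteins are RING-finger ligases of the TRIM family that sit on the sarcomere and on microtubules, bind one another, and act on contractile proteins. Fbxo32 and Trim63 are widely used markers of muscle atrophy, since both rise in wasting muscle under the FoxO transcription factors, while Trim54 and Trim55 are known more for keeping the sarcomere and its microtubules in order.

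The promoters of the members with an entry in the RefSeq promoter table (GRCr8) are shown. Trim54 and Trim63 encode related proteins, and under the authors' scaling Trim54 but not Trim63 had an adjusted p under 0.05 between the sexes (DESeq). A link between promoter letters and the sexes was not tested. Of the 4 members, 2 had an entry, and Fbxo32 and Trim55 did not. Each window runs from 250 bases before to 50 bases after the annotated start of the gene, 5′ to 3′ on the strand of the gene. The Trim63 window is chr5:151816986-151817285 on the plus strand, and the Trim54 window is chr6:30978426-30978725 on the minus strand. Capitals mark the FoxO core GTAAACA, the glucocorticoid receptor half-site TGTTCT, the M-CAT element GGAATG and the TATA box TATAAA, searched on both strands.
Trim63: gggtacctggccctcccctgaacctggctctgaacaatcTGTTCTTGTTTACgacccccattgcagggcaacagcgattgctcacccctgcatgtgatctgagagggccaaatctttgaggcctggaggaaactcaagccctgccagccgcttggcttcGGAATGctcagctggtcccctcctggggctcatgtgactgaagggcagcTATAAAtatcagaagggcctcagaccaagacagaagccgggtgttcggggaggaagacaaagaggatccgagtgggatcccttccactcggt
Trim54: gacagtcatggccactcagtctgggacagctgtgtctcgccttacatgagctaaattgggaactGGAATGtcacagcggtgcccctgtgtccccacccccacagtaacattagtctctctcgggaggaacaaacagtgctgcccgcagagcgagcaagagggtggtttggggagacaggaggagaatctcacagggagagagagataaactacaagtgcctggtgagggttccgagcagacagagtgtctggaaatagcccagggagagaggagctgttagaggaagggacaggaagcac
The Trim63 window held a match to the FoxO core on the opposite strand, starting at position -205 from the gene's start, directly after a half-site match at -211 with no shared base. It also held the M-CAT element at -91 and the TATA box at -42. The Trim54 window held the M-CAT element at -186 and no match to the letters of the other 3 capitalised motifs. The E-box CANNTG, not capitalised, matched at -160, -83 and -61 in Trim63 and at -224 and -38 in Trim54. Among 33469 promoter windows of the same length, 3.78% held the FoxO core, 20.7% the half-site, 14.2% the M-CAT element, 14.2% the TATA box and 72.1% the E-box. A match describes letters in the window and does not show that a factor binds there.

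Trim54 was higher in the females, and the other 3 ligases had nearly the same mean in both sexes, under the authors' scaling. With each sex scaled instead to the sum of 8 cardiac myocyte markers, Trim54 was no longer called (adjusted p 0.130), and the log2 changes of the other 3 lay between -0.34 and -0.32, none of them called. The authors' deposited table gives levels as normalized counts, which are reads per gene divided by a size factor for each library, averaged over the libraries of a sex. It holds no value per library for these genes, so group means stand without an SD. The error of a fold change was therefore taken from the authors' own p-value: the standard error (SE) that would give that p under a normal distribution, with an approximate 95% interval built from it. Such an SE is least certain where p is near 1. A gene was counted as changed when its adjusted p was under 0.05 in the test that the authors made, run with DESeq and adjusted over 13346 genes. These p-values set the difference between the sexes against the spread between libraries of a sex as DESeq modelled it. They do not measure that spread for a single gene. Since RNA was taken from whole cell preparations, fewer cells of a type and less RNA per cell cannot be told apart in any of these values.

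Trim54, the MuRF protein best known for binding and stabilising microtubules, had a mean of 9736 normalized counts in males and 14302 in females in the authors' deposited table. The female mean was 46.9% higher, a 1.47-fold difference with an approximate 95% interval from 1.23 to 1.75. On the log2 scale the change in the authors' deposited table was 0.55, with an implied SE of 0.130, p = 2.1e-05 and adjusted p = 0.00137 by their DESeq test. By its p-value Trim54 stood at rank 202 of the 13346 genes. Counting error was a small part of this uncertainty: the summed reads alone gave an SE of 0.00805 on the log2 scale, 0.381% of the implied variance.

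Trim55, another MuRF protein of the sarcomere and microtubules, had means of 5962 normalized counts in males and 5828 in females in the authors' deposited table. The fold change was 0.978, with an approximate 95% interval from 0.805 to 1.19 and adjusted p = 0.955 by the authors' DESeq test. Trim63, the MuRF protein that acts on thick filament proteins and troponin I, averaged 3901 normalized counts in males and 3830 in females, according to the authors' deposited table. Its fold change was 0.982, with an approximate 95% interval from 0.803 to 1.20 and adjusted p = 0.972 by the same test. For both genes the sexes differed by far less than the implied error. That error is derived from the authors' DESeq p (0.820 for Trim55 and 0.858 for Trim63), so it restates p and adds no evidence.

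Fbxo32, the F-box member, had means of 1215 normalized counts in males and 1173 in females in the authors' deposited table. The fold change was 0.966, with an approximate 95% interval from 0.783 to 1.19 and adjusted p = 0.921 by the authors' DESeq test. Its log2 change of -0.05 had an implied SE of 0.155, of which counting error made up 2.68% of the variance. Depth was thus a minor part of the error for Fbxo32 as well, although it had the fewest counts of the members.

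**Figure D1:**
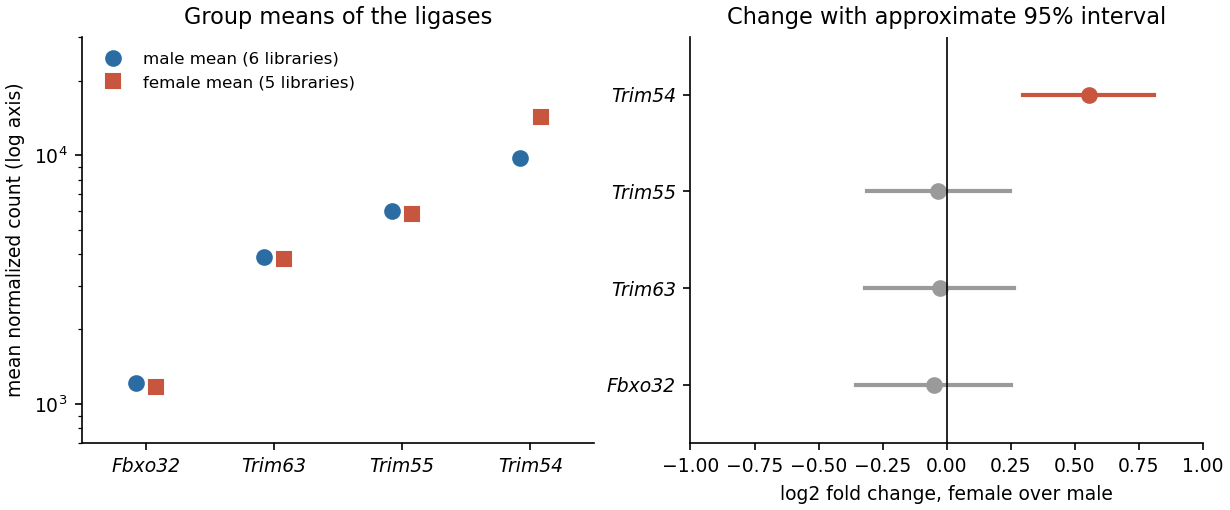
Left, the authors' mean normalized count of each ligase in 6 male libraries (circles) and 5 female libraries (squares), on a log axis and with no error bars because no values per library are given; right, the log2 fold change (female over male) with the approximate 95% interval implied by the authors' p. The Trim54 interval lies above 0, while the intervals of Fbxo32, Trim63 and Trim55 span it.

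The interval of Trim54 began at 1.23-fold, above the upper ends of the intervals of Trim55 (1.19), Trim63 (1.20) and Fbxo32 (1.19). The difference between members was not tested, because their values share libraries and are not given per library. As a ratio of group means in the authors' deposited table, Trim54 counts were 1.63 times those of Trim55 in males and 2.45 times in females. Against Trim63 the ratio was 2.50 in males and 3.73 in females, and against Fbxo32 it was 8.02 and 12.2. Of the normalized counts of the 3 MuRF genes together, Trim54 held 49.7% in males and 59.7% in females, Trim55 held 30.4% and 24.3%, and Trim63 held 19.9% and 16.0%. By counts the order in both sexes was Trim54, Trim55, Trim63 and Fbxo32. Counts grow with transcript length, which was not used here, so this order is one of reads and not of transcripts.

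The share of all genes called gives the background for these results. By the threshold of 0.05 on the authors' adjusted p, 14.5% of the 13346 genes differed between the sexes, 6.71% being higher and 7.76% lower in females. The share was higher where reads were many: among 3573 genes with 1000 or more normalized counts on average, which include all 4 ligases, 27.1% were called and 12% were called higher in females. Of the 4 ligases 1 was called, Trim54, and 1 of 4 is near the 27.1% of genes with so many reads. The size of the Trim54 change was typical of called genes, whose median was 1.51-fold among the 896 called higher in females. Of those 3573 genes, 94.5% had a lower log2 fold change than Trim54. At the other end, 5.37% of those genes had a smaller absolute change than Trim63, 6.41% a smaller one than Trim55 and 9.63% a smaller one than Fbxo32.

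**Figure D2:**
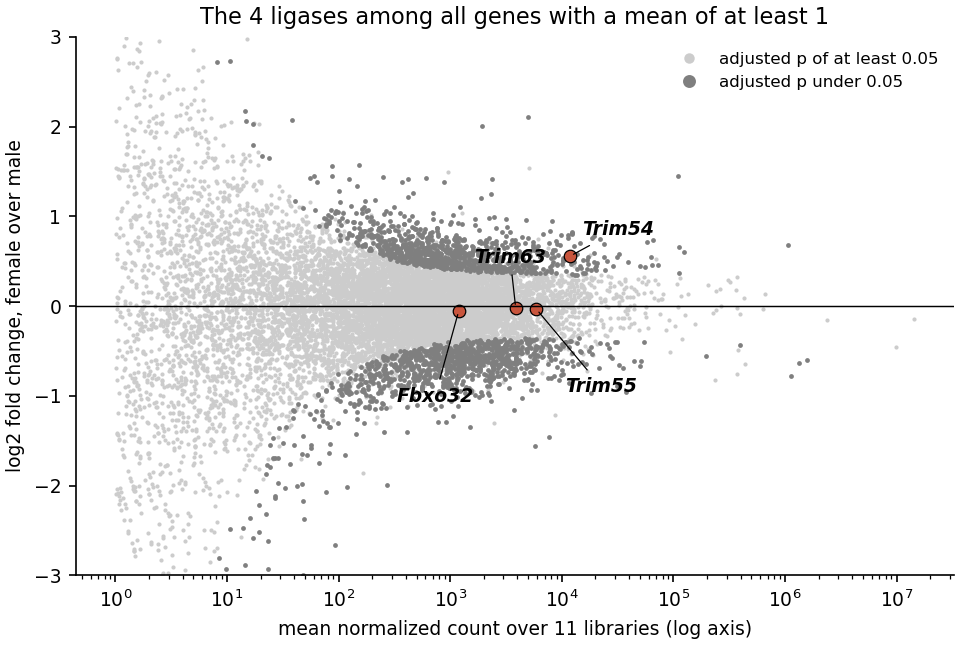
Each point is a gene of the authors' deposited table with a mean of at least 1 normalized count, by its mean over 11 libraries (log axis) and its log2 fold change, female over male; genes beyond 3 in either direction are not drawn, and darker points have an adjusted p under 0.05. Trim54 lies among the genes called higher in females, and Fbxo32, Trim63 and Trim55 lie close to 0.

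The call for Trim54 depended on how the sexes were scaled. The summed markers of the myocyte were higher in the females: 8 cardiac myocyte markers summed to 3.11e+06 normalized counts in males and 3.80e+06 in females in the authors' deposited table, a ratio of 1.23, with Myh6 and Ryr2 called higher in females and none called lower. With each sex scaled to that sum, the log2 change of Trim54 was 0.26 at adjusted p = 0.130, and with each sex scaled to the median change of the 8 markers, an alternative added after the data were seen, it was 0.34 at adjusted p = 0.0401. The other 3 ligases were not called under either scaling, with log2 changes of -0.34 for Fbxo32, -0.33 for Trim55 and -0.32 for Trim63 and adjusted p-values of 0.0834, 0.0744 and 0.0963 under the summed markers. The marker sum lowered every log2 change by 0.29 and the marker median by 0.21. Under the marker sum the counts over all genes went from 896 higher and 1036 lower to 169 higher and 3608 lower. Scaling to the sum over genes with a symbol gave 643 higher and 1453 lower, and the median of the markers gave 289 and 2808. Myh6, the alpha myosin heavy chain and the highest of the 8 markers in both sexes, itself had a log2 change of 0.68. Its means were 831771 normalized counts in males and 1.33e+06 in females, most of the gap between the marker sums. Tnnt2 (-0.03) and Pln (-0.20) had lower means in females, and the other markers had higher ones. Whether the amount of myocyte RNA takes part in the Trim54 difference was not tested.

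Markers of other cell types also differed. Of 7 measured fibroblast markers, 3 were lower in females (Col3a1, Col1a1 and Postn) and none higher, Col1a2 was listed at 0, and their sum in the authors' deposited table was 18075 in males and 8968 in females. Of 7 endothelial markers, Vwf and Egfl7 were higher and Emcn lower, with sums of 18590 and 18525. None of 7 smooth muscle and pericyte markers was called, with sums of 4806 and 4604, and of 6 macrophage and leukocyte markers Mrc1 was lower, with sums of 563 and 378. None of 5 atrial markers was called, although they summed to 2020 in males and 4149 in females. Myl7, with means of 287 and 2548, differed by more than these sums did. Its adjusted p was 0.427 by the authors' DESeq test. The part of these cells in the ligase values was not tested.

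Fast skeletal muscle fibres also express the MuRF genes, so their markers were read in the same way. The 7 markers summed to 249.9 normalized counts in males and 334.9 in females in the authors' deposited table, and none was called. Mybpc2 alone gave 234 and 298 of these, Myh4 had means of 2.11 and 3.12, and Actn3 was listed at 0 in females. For the 6 other than Mybpc2, reads per library could be recovered from the digits of the group means. Their summed normalized reads were 3.41, 16.3, 2.86, 35.1, 23.2 and 13.6 in the 6 male libraries and 36.1, 27.2, 97.6, 15.4 and 9.26 in the 5 female libraries. One female library was thus higher than the others, with 33.5 normalized reads of Myh1 and 33.5 of Tnnt3. Trim54 in that library alone was not measurable here, and the part of skeletal muscle RNA in the ligase values was not tested.

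The MuRF genes were next set beside the rest of the TRIM family, a large group of RING-finger ligases. Of 48 rows named Trim with a number, 44 had a mean above 0, 4 were higher and 2 lower in females, which is 13.6% of the measured rows, and their median log2 change was 0.05. Trim11, a ligase studied in protein quality control, was 2.01-fold higher, with means of 314 and 631 and adjusted p = 0.000178 by DESeq in the authors' deposited table. Trim37, a ligase that acts at centrosomes and peroxisomes, was lower in females at 0.511-fold, with means of 293 and 150 and adjusted p = 0.000741 by DESeq in the authors' deposited table. Trim54 had the smallest p of the family after these, counting only rows with a mean of at least 50. The family as a whole was called about as often as all genes.

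By the log2 change over the 2 group means, the family members nearest to Trim54 were Trim28 (0.45), Trim65 (0.40) and Trim47 (0.39), of which Trim28, a transcriptional corepressor, and Trim47 were called in the authors' deposited table with adjusted p-values of 0.0161 and 0.0491 by DESeq. Trim65 had an adjusted p of 0.390 there. Nearest to both Trim63 and Trim55 were the other of that pair, then Trim27 (0.00) and Trim72 (0.03), the last a membrane repair protein of striated muscle with means of 5252 and 5374. This likeness rests on a single difference per gene.

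Fbxo32 was compared with the other F-box genes. Of 55 rows, all measured, 5 were higher and 3 lower in females, which is 14.5%, with a median log2 change of 0.16. Fbxo31 (0.73), Fbxo21 (0.62) and Fbxw8 (0.79) had the smallest p-values, with adjusted values of 0.00131, 0.00257 and 0.00491 by DESeq in the authors' deposited table. All 3 were higher in females. Among the nearest to Fbxo32 in log2 change were Fbxo33 (-0.05) and Fbxl20 (-0.03), neither of them called.

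**Figure D3:**
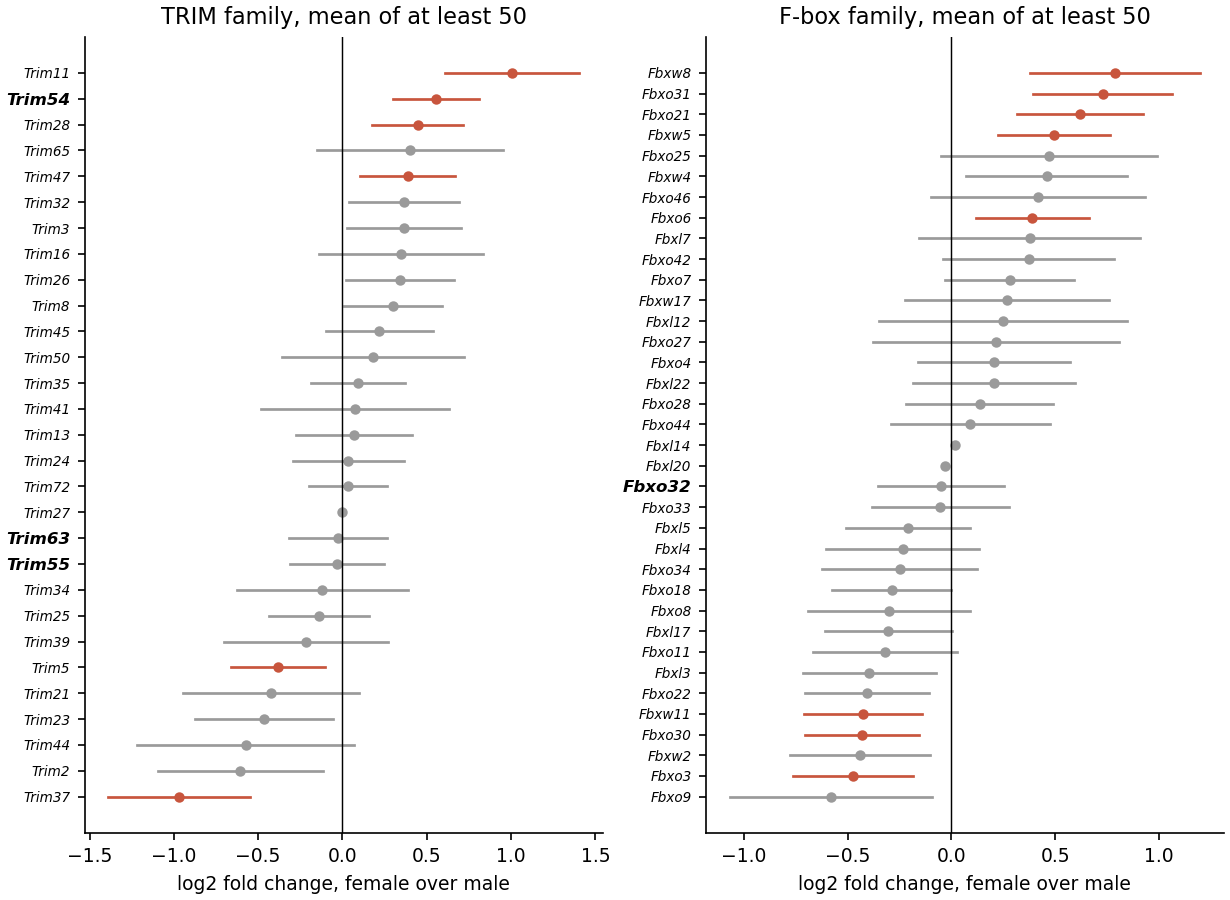
Log2 fold change (female over male) of the TRIM genes (left) and F-box genes (right) with a mean of at least 50 normalized counts, with approximate 95% intervals implied by the authors' p; red marks an adjusted p under 0.05, the members described here are in bold, no interval is drawn where p is 0.9 or more, and genes not reported here are not drawn. Trim54 is second from the top among TRIM genes, and Trim63, Trim55 and Fbxo32 are near the middle of their families.

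Genes that work with the 4 ligases were described by 7 lists with 210 symbols, of which 192 were in the table and 191 measured. In 6 lists the share of genes called lay between 31.4% and 36.8%, and in the seventh it was 12%. Those 6 shares were above the 14.5% of all genes and above the 27.1% of genes with at least 1000 counts. The lists hold genes on both sides of 1000 counts, so neither share is a like background for them. They were also written with earlier results of these data known. The median log2 changes of the lists lay between -0.17 and 0.20, beside -0.0028 over 9116 genes with 50 or more normalized counts on average. The counts are descriptions and were not tested as sets. They also turned with the scaling: under the sum of the 8 myocyte markers, 2 genes were higher and 11 lower among the other ligases, 4 and 10 among the regulators, 3 and 9 among the substrates and partners, 0 and 16 among the ubiquitin, E1 and E2 genes, and the lists for the SCF scaffold, deubiquitinases and atrophy genes had 1 and 10, 1 and 12, and 0 and 11. The directions given next are those of the authors' own scaling.

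The scaffold that Fbxo32 needs was lower in females in part. Of 19 measured genes of the SCF scaffold and of neddylation, the modification that activates it, 2 were higher and 5 lower in females, with a median log2 change of -0.08. Skp1, the adaptor that holds the F-box protein, went from 16829 normalized counts in males to 11920 in females in the authors' deposited table, a log2 change of -0.50 at adjusted p = 0.00575 by DESeq. Cul1, the scaffold itself, was lower at -0.42 (adjusted p 0.0385), and Rbx1, the RING subunit, had a log2 change of 0.04 at adjusted p = 0.903 in the authors' deposited table (DESeq). Among the neddylation genes Uba3, a subunit of the activating enzyme, fell by 0.71 on the log2 scale, and Nae1, its partner, had a log2 change of -0.51 and was called as well. Cops2, a subunit of the signalosome that removes Nedd8, was at -0.76 and called. Cand2, a muscle-enriched factor that exchanges F-box proteins, was called higher at 0.78 (adjusted p 0.00101) (DESeq, the authors' deposited table).

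Other ligases of muscle and heart moved in both directions. Of 34 measured, 7 were higher and 4 lower in females, with a median log2 change of 0.14. Ubr4, a very large ligase of the N-degron pathway, rose by 0.65 on the log2 scale, from 3063 to 4823 normalized counts, at adjusted p = 0.000303 by DESeq in the authors' deposited table. Asb2, a ligase that acts on filamins, had a log2 change of 0.75, from 16858 to 28316 normalized counts, at adjusted p = 0.00428 by DESeq in the authors' deposited table. Fbxo31 and Fbxo21, given above, were the remaining members with the smallest p-values. On the lower side were Wwp1 (-0.85), Xiap (-0.70), Smurf2 (-0.51) and Fbxo30 (-0.43), the last an F-box ligase known from skeletal muscle wasting.

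Genes for ubiquitin and for the enzymes that pass it on gave a split picture. Of 25 measured genes for ubiquitin, activating (E1) and conjugating (E2) enzymes, 4 were higher and 4 lower, with a median log2 change of -0.17. The E2 genes Ube2v2 (-0.84) and Ube2k (-0.42) were lower in females, with adjusted p-values of 0.0109 and 0.0220 by DESeq in the authors' deposited table.

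Deubiquitinases, which remove ubiquitin, were called lower more often than higher by count: 2 of 22 measured were higher and 5 lower, with a median log2 change of -0.05. Usp19, a muscle-expressed member linked to wasting, was higher in females, from 2533 to 4493 normalized counts, a log2 change of 0.83 at adjusted p = 6.0e-05 by DESeq in the authors' deposited table. Usp20 was higher at 0.50. Usp25 (-0.63) and Usp8 (-0.44) were lower, with adjusted p-values of 0.00813 and 0.0136 by DESeq in the authors' deposited table.

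Regulators known to act on Fbxo32 and Trim63 included genes that rose and genes that fell. Of 35 measured, 7 were higher and 4 lower, with a median log2 change of 0.20, and Myog was listed at 0. Junb, a transcription factor that keeps muscle mass, rose from 9242 to 16087 normalized counts, a log2 change of 0.80 at adjusted p = 1.6e-05 by DESeq in the authors' deposited table. Rela (0.72) and Nfkb2 (0.74), subunits of NF-kB, a driver of Trim63, were higher, with adjusted p-values of 0.000138 and 0.00144 by DESeq in the authors' deposited table. Hdac5, a class II histone deacetylase, rose by 0.64 at adjusted p = 0.000593 (DESeq, the authors' deposited table).

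The FoxO factors themselves were not called. Foxo1 had a log2 change of 0.40 at adjusted p = 0.0656, Foxo3 one of 0.15 with 0.767 and Foxo4 one of -0.31 with 0.173 by DESeq in the authors' deposited table. Other inputs were called in both directions. Nr3c1, the glucocorticoid receptor, went from 5595 normalized counts in males to 3341 in females in the authors' deposited table at adjusted p = 0.00620 by DESeq, and Igf1, a growth factor that restrains both ligases, had means of 328 and 154 at adjusted p = 0.0181. Igf1r, the receptor of Igf1, was higher in females, with a log2 change of 0.68 (adjusted p 0.0109 by DESeq, the authors' deposited table). Tfeb, a lysosomal regulator and a driver of Trim63, was higher at 0.68 (adjusted p 0.00495) by DESeq in the authors' deposited table.

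RNA of reported substrates and binding partners was more often higher than lower in females by count: of 31 measured, 8 were higher and 2 lower, with a median log2 change of 0.16. A ligase acts on the protein, so these RNA values do not show the amount of a substrate or the action of a ligase on it. Myh6 (0.68, adjusted p 0.000117), a myosin chain, and Eif3f (0.83, adjusted p 0.000573), an initiation factor subunit targeted by Fbxo32, were higher by DESeq in the authors' deposited table. Sqstm1, an autophagy receptor that binds MuRF proteins, was at 0.67 and Dusp1, a phosphatase targeted by Fbxo32 in the heart, at 0.83, both called. Of the partners known for Trim54, Flnc, the muscle filamin, was higher at 0.42 (adjusted p 0.0218) by DESeq in the authors' deposited table, and Fhl2 had a log2 change of 0.25 at adjusted p = 0.201. Ppp3ca and Ppp3cb, catalytic subunit genes of the Fbxo32 target calcineurin, were lower in females, with log2 changes of -0.62 and -0.39. Their adjusted p-values were 0.0211 and 0.0499 by DESeq in the authors' deposited table. The Ppp3cb value lay at the threshold. With changes centred on the median of genes with a mean of at least 50, 1 gene of this list was called lower in place of 2. Tnni3, the cardiac troponin I on which Trim63 acts, had a log2 change of 0.18 and was not called. Myh6 and Tnni3 are also among the myocyte markers given above.

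Other genes that rise together with Fbxo32 and Trim63 in atrophying muscle were mostly not called. Of 25 measured, 1 was higher and 2 lower in females, which is 12%, with a median log2 change of -0.06. Gadd45a, a stress gene of denervated muscle, was lower in females, from 4220 to 2457 normalized counts, at adjusted p = 0.00814 by DESeq in the authors' deposited table. Bnip3 (-0.39, adjusted p 0.0385), a mitophagy receptor, was lower and Ulk1 (0.51, adjusted p 0.0211), an autophagy kinase, was higher by DESeq in the authors' deposited table. Bnip3l, the nearest to these by p, had a log2 change of -0.40 at adjusted p = 0.0530.

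**Figure D4:**
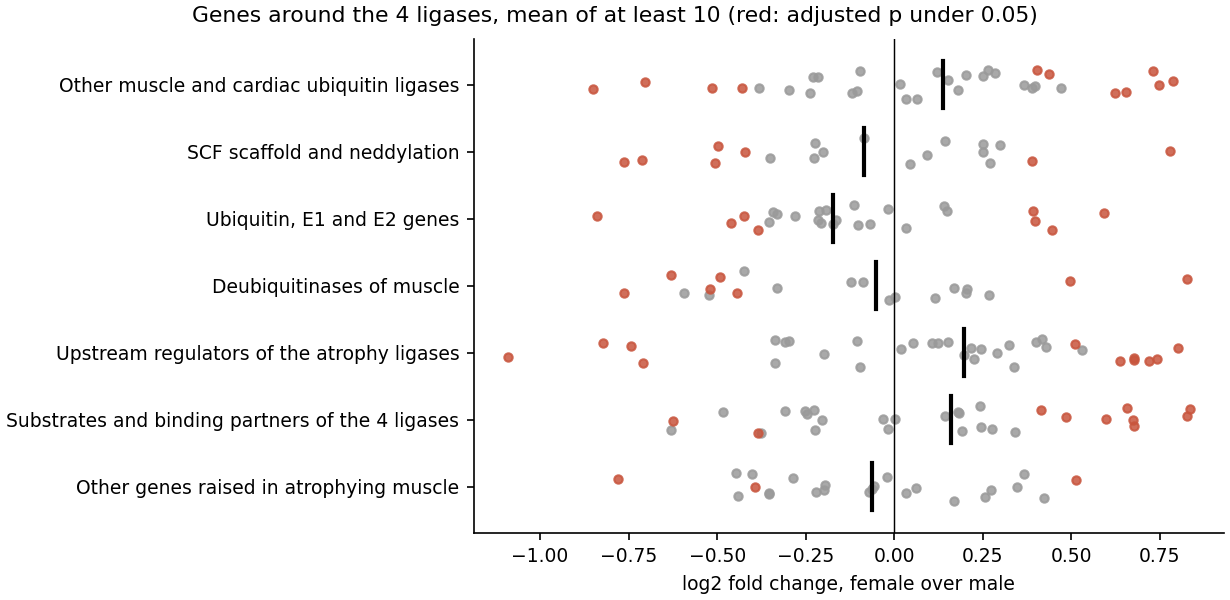
Log2 fold change (female over male) of the listed genes with a mean of at least 10 normalized counts, 1 point per gene with vertical jitter, by list; red points have an authors' adjusted p under 0.05 and each black bar is the median over all measured genes of its list. Red points lie on both sides of 0 in each list, and with the authors' scaling, the one drawn, the lists of ligases, regulators and substrates have medians above 0.

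For listed genes with low means, reads in each library could be recovered. Counting error weighs more at such low means, so their spread does not stand for that of the 4 ligases. Acvr2b, an activin receptor upstream of FoxO, had 13.1 ± 4.11 normalized reads in males (SD, n = 6; 8.54 to 18.6) and 14.1 ± 6.67 in females (SD, n = 5; 5.74 to 21.6). The groups overlapped, at adjusted p = 0.991 (exact permutation test, two-sided, over 899 genes). Mstn, the muscle growth inhibitor myostatin, had 8.06 ± 11.8 in males and 8.56 ± 12 in females, with 2 libraries at 0 in each sex, so its spread exceeded its mean. Uchl1, a deubiquitinase, had 3.26 ± 4.20 in males, with 3 libraries at 0, and 11 ± 4.57 in females, with none at 0, and the groups overlapped. Skp2, an F-box protein of dividing cells, had 3.88 ± 2.67 in males and 1.08 ± 1.61 in females. Over the 899 genes the permutation test called 0 at an adjusted p under 0.05 and 113 at an unadjusted p under 0.05, and limma called 1. Acvr2b was the sole listed gene among the 899. The smallest p this design allows in the permutation test is 0.00216. An adjusted p under 0.05 over 899 genes thus needs many genes at that floor, so the 0 was in part fixed by the design.

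**Figure D5:**
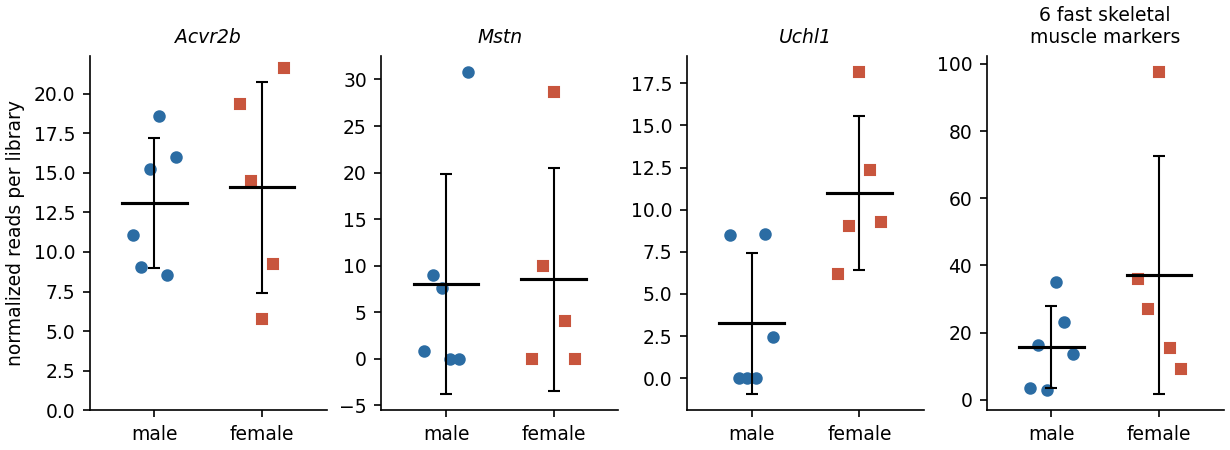
Normalized reads per library of Acvr2b, Mstn, Uchl1 and the sum of 6 fast skeletal muscle markers in 6 male (circles) and 5 female (squares) libraries; horizontal lines are means and bars are 1 SD. The sexes overlap in all 4 panels, and one female library stands at 97.6 for the skeletal markers.

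The genes that flank the ligases in the GRCr8 annotation are given with their values. Klhl38, next to Fbxo32, had means of 928 and 1247 at adjusted p = 0.0531 by DESeq in the authors' deposited table. Pdik1l and Slc30a2, beside Trim63, had log2 changes of -0.43 and 0.13 and were not called. Dnajc5g, beside Trim54, was listed at 0 in males and at 0.617 normalized counts in females, and Ucn, on its other side, was not analysed here. Trim55 overlaps an annotated noncoding gene, LOC120100781, and the sources used here do not say whether reads were counted by strand, so reads of that gene could be held in the Trim55 value. Dnajc5b and Crh, beside Trim55, had means under 10.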

How the data were processed

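RNA of 11 libraries was described in 1 table of 17257 genes. Stranded paired-end libraries were built from 650 ng of RNA (integrity number 9 or more) after removal of ribosomal RNA, per the labels' protocols. The authors' tools were DESeq, HTSeq 0.6.1, TopHat2 2.0.12, Trimmomatic 0.32 and FastQC with rat build rn6, per the submitters' processing notes; strand counting and annotation are not given in the sources used here.

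The authors deposited mean normalized signal (gene counts over size factors) for all libraries and for groups A and B. The authors also gave the fold as a linear ratio and its log2 value. Deposited p-values and adjusted p-values come from the authors' DESeq test. Group A was read as the 6 males and B as the 5 females, since weights of 6 for A and 5 for B gave the overall mean in 13346 of 13346 genes with reads (relative tolerance 1e-09) and in 0 with the weights exchanged. The adjusted values matched a Benjamini-Hochberg adjustment over these 13346 genes.

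Implied SEs and intervals were computed in Python 3.11.15 with scipy 1.17.1 and tested on simulated data. A group mean adds up whole reads over size factors, so size factors (0.811 to 1.17 in males, 0.972 to 1.14 in females) and, at male means up to 30 and female means up to 100, reads per library were recovered (tolerance 1.5e-14). The search gave a single solution in 3726 of 3726 genes for the males and 5034 of 5034 for the females, with libraries known by sex alone. Genes with a mean of at least 10 were tested on log2 of normalized reads plus a pseudocount of 1, by permutation and with limma 3.58.1. For the members, counting error was a small part of the implied variance.

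The members, lists, markers and alternatives were chosen with earlier results of these data known. Named were the members, up to 4 genes of each list by lowest p (mean 10 or more), and, at a mean of at least 50 in each family, the 3 nearest to each member in log2 change and the 3 of lowest p. Further genes named for a known role beside a member (the FoxO factors, Cul1, Rbx1, Nae1, Nr3c1, Igf1, Igf1r, Tfeb, Flnc, Fhl2, calcineurin, Tnni3), the other ligases called lower and Skp2, Mstn, Acvr2b and Uchl1 were chosen after their values were seen. Some genes that the rule names are not reported here. Alternatives changed the scaling, the genes adjusted over and the threshold. Promoter windows and the flanking and overlapping genes come from RefSeq (GRCr8). No other coordinates were used because the builds differ.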

Additional observations from a re-analysis of the deposited data

Results flagged for a closer look

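Among listed genes with reads recovered per library, single libraries stood apart from the rest of their sex in 2 genes by Dixon's criterion. Its cut-offs are made for normally distributed values. How often chance meets them in low counts with many zeros is not known here. The highest male library of Mstn held 30.8 normalized reads, the next 9.05. The highest male library of Uchl3, a deubiquitinase, held 4.13 normalized reads, the next 0.905, and its highest female library held 9.26 while the other female libraries were at 0.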

How the results depend on the processing

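Trim54 kept its direction in all settings tried and lost its call in 1: scaled to the sum of the 8 cardiac myocyte markers, its log2 change was 0.26 (adjusted p 0.130) and 0 of the 4 ligases were called. Under the same scaling the SCF list had 11 genes called in place of 7, the ubiquitin, E1 and E2 list 16 in place of 8, the deubiquitinases 13 in place of 7 and the other atrophy genes 11 in place of 3. With the median change of the markers, added after the data were seen, the last 3 lists had 14, 11 and 9. At an adjusted p under 0.01 the counts were 5 for the other ligases (in place of 11), 4 for the SCF list, 1 for the ubiquitin list, 2 for the deubiquitinases, 7 for the regulators (in place of 11), 6 for the substrates (in place of 10) and 1 for the other atrophy genes. That last list had 5 genes called when adjusted over genes with a mean of at least 10 or at least 50, 5 when scaled to genes with a symbol and 6 at an adjusted p under 0.1. The cause was not tested. No paired analysis was possible because the table gives group means, and the recovered libraries carry no replicate number. Leaving out a library was not run for the ligases for the same reason.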
